A study of Homo sapiens with 6 samples.

Results

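Lactate transport and pyruvate fate were described here through 10 genes: the monocarboxylate transporter genes SLC16A1 and SLC16A3, the genes of their chaperones BSG and EMB, the lactate dehydrogenase genes LDHA and LDHB, the mitochondrial pyruvate carrier genes MPC1 and MPC2, and the pyruvate dehydrogenase kinase genes PDK1 and PDK3. They were chosen by symbol and matched to the NCBI gene identifiers of the count files. All 10 were found among 40895 identifiers, and all 10 passed the filter on low counts that left 15954 genes to test. The list was drawn up with the shPRAME against shCtrl differences already known, so the differences of these 10 genes are given as a description, without p-values, and support nothing by themselves.

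The cells were A375SM, an established human melanoma line of metastatic origin within the A375 lineage, labelled WT in genotype and skin in tissue. For 3 libraries the label names a control hairpin (shCtrl), and for the other 3 a short hairpin RNA that targets PRAME (shPRAME). PolyA RNA was sequenced, and every library carries the same batch label. Neither the number of hairpins nor whether the replicates were separate transductions is given in the sources used here, so the spread between libraries may be technical.

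Cells that break down glucose rapidly reduce much of their pyruvate to lactate and export it with a proton. Lactate dehydrogenase makes and consumes lactate as a tetramer of A and B chains, the A chain being associated with lactate formation and the B chain with lactate use. MCT1 (SLC16A1) carries lactate in either direction, whereas MCT4 (SLC16A3) is the typical exporter of strongly glycolytic cells. Both need an immunoglobulin-family chaperone, basigin (BSG) or embigin (EMB), to reach the cell surface. Pyruvate that is not reduced enters mitochondria through a carrier built of MPC1 and MPC2 and is oxidised by the pyruvate dehydrogenase complex, which the PDH kinases switch off by phosphorylation. Hypoxia-inducible factor, many of whose binding sites hold the core ACGTG, is a known activator of SLC16A3, LDHA and PDK1.

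Promoter sequence is shown for the genes with this core, since SLC16A3, LDHA and PDK1 share a known activator but had different fold changes. RefSeq promoter windows (GRCh38.p14) covered 8 of the 10 genes with 17 windows, and the 250 bases before each start were searched for ACGTG on both strands. Other forms of the binding site were not searched for. Overlapping matches, such as the pair that the palindrome CACGTG gives, were counted as 1 match. At least 1 match lay in a window of 5 of these genes, namely SLC16A3, LDHA, PDK1, BSG and PDK3, while 21.7% of all 27305 genes had a match in any window. Of all 35116 windows, 18.5% held a match and 2.61% held at least 2. The windows of these 5 genes that held a match had 69.6% to 83.2% G and C bases, against a median of 58% over the background. A gene with more windows, such as SLC16A3 with 5, also has more places for a match. The count of genes and the share over all genes are therefore not alike, and nothing is read from them. For SLC16A3 the stretch below ends before the first annotated untranslated base. The others are limited to 30 bases around matches. Capitals mark the matched letters, CACGT being ACGTG on the opposite strand. All stretches are on the plus strand: chr17:82228792-82229031 for SLC16A3, chr11:18394468-18394497 for LDHA, chr2:172556060-172556089 for PDK1, chr19:572395-572424 for BSG and chrX:24465217-24465246 for PDK3.
SLC16A3: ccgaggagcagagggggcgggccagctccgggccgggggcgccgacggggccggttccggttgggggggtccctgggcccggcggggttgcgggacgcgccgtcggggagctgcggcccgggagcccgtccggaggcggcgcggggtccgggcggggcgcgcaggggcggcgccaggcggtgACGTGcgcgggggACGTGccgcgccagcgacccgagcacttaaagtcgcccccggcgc
LDHA: ccgactcaCACGTGggttcccgCACGTccg
PDK1: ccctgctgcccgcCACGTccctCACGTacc
BSG: cgccgggtCACGTGcgccgccgcccggatt
PDK3: cgccgcgtACGTGcagcaaccgactccgcc
The SLC16A3 matches began 68 and 55 bases before 1 of its 5 annotated starts, and the PDK1 matches 17 and 8 bases before 1 of its 2. The other windows of these genes held no match, and which start the cells used was not tested. LDHA had 1 more match, not shown, that began 185 bases before the same start, 1 of 2 annotated. No match was found in the windows of LDHB, MPC1 and MPC2, which says only that these letters are not in these windows.

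Libraries held 30842788 to 34107332 counts. Levels are CPM, counts per 1000000 counts of the library, scaled between libraries by TMM, a trimmed mean of ratios. A gene without a count could still have been present at up to 3 counts, 0.0880 to 0.0973 unscaled CPM depending on the library, for counting error only. PRAME mRNA, the hairpin's target, was at 165.0 ± 1.27 CPM in shCtrl (mean ± SD, n = 3) and fell to 34.2% of that level, 56.4 ± 2.30 CPM, in shPRAME (edgeR adjusted p = 4.85e-17). Of 4 tested markers of melanoma, 1 was higher and 2 lower in shPRAME: SOX10 was at 265.7 ± 7.95 and 275.4 ± 1.48 CPM and did not pass, S100A1 rose from 65.9 ± 1.63 to 91.7 ± 0.795, S100B fell from 54.0 ± 0.629 to 28.2 ± 1.26, and MITF fell from 44.6 ± 1.38 to 37.7 ± 0.740 CPM (edgeR adjusted p = 0.076, 1.96e-10, 9.43e-13 and 2.05e-05). The pigment cell markers PMEL, MLANA, TYR, TYRP1 and DCT had at most 11 counts in any library. Markers of other cell types also moved: the summed level of 8 fibroblast markers was 112.5 to 116.3 CPM in shCtrl and 88.1 to 95.3 CPM in shPRAME, with 5 of 7 tested genes higher and 2 lower, and that of 8 leukocyte markers 43.1 to 45.4 and 72.4 to 74.4 CPM, nearly all of it CD68, with 3 of 3 tested higher. The fibroblast sum fell with PDGFRB and FAP, whereas the collagen gene COL1A2 had 0 counts over the shCtrl libraries and 2157 over the shPRAME libraries, and the leukocyte gene PTPRC 0 and 92. The 6 endothelial markers summed to 0.292 to 0.947 and 3.01 to 3.85 CPM, with 1 of 2 tested higher, and 8 keratinocyte and epithelial markers to 102.8 to 108.9 and 72.3 to 75.7 CPM, with 3 of 3 tested lower. CD3E, CDH5, CLDN5, KRT5 and KRT1 had no count in any library. The share of nuclear ribosomal RNA was 4.82% ± 0.199 in shCtrl against 2.50% ± 0.563 in shPRAME, and that of mitochondrial mRNA 3.91% ± 0.122 against 4.65% ± 0.0614 (SD, n = 3 each). The part of these shifts in the results below was not tested. In bulk RNA, fewer cells that express a gene and less RNA per cell cannot be told apart.

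The lactate exporter gene was nearly silent in the shPRAME cells, and the gene of the other main transporter was moderately higher. SLC16A3 (NCBI gene 9123, GRCh38 chromosome 17, 82217934 to 82240086) stood at 83.6, 81.0 and 76.1 TMM-scaled CPM in shCtrl replicates 1 to 3 and at 2.53, 1.83 and 2.35 CPM in the shPRAME replicates. Every shPRAME library lay far below every shCtrl library, and the remaining signal rested on 79, 63 and 81 counts. The means were 80.2 ± 3.83 and 2.23 ± 0.364 CPM (SD, n = 3 each), 35.9-fold lower in shPRAME, with a log2 fold change of -5.17 (SE 0.0726). SLC16A1 (NCBI gene 6566, chromosome 1, 112911847 to 112956196) had 184.2, 182.7 and 188.9 CPM in shCtrl and 258.4, 253.4 and 251.3 CPM in shPRAME. Its groups did not overlap, and its level was 1.37-fold higher in shPRAME (log2 fold change 0.46, SE 0.0245).

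**Figure D1:**
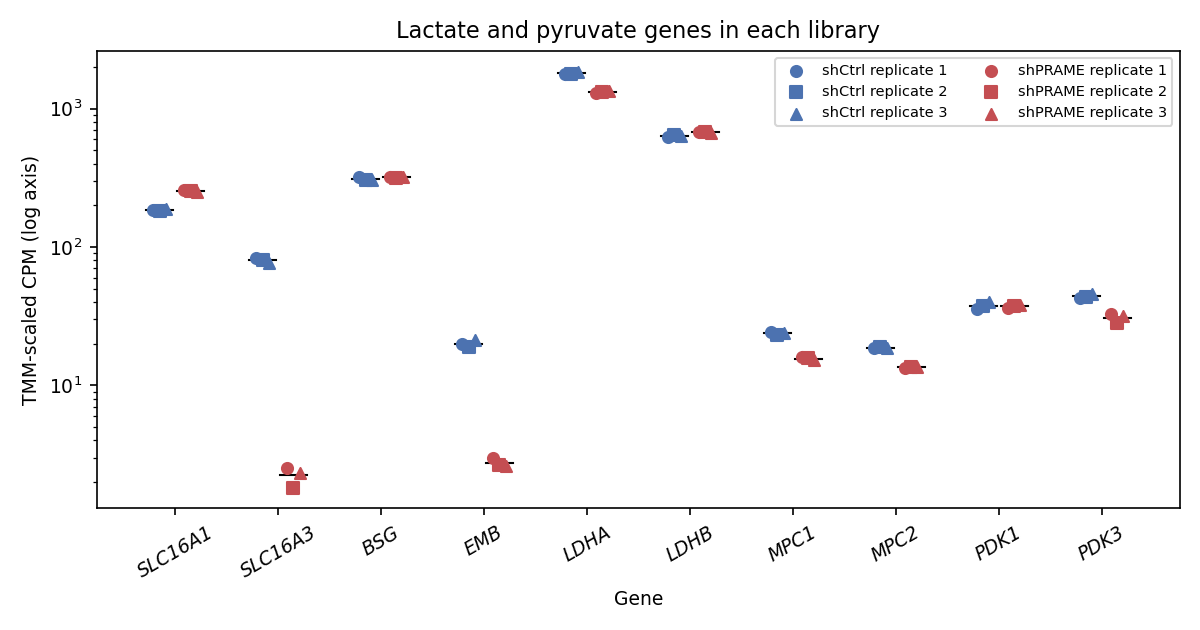
TMM-scaled CPM (log axis) of the 10 genes in each of the 6 libraries, blue for shCtrl and red for shPRAME, with a symbol for each replicate and a bar at the group mean. SLC16A3 and EMB show the widest gaps between the groups, while BSG and PDK1 overlap.

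Of the chaperone genes, the scarce one was much lower in shPRAME and the abundant one overlapped between the groups. EMB, embigin (NCBI gene 133418, chromosome 5, 50396192 to 50443345), was at 19.9, 19.0 and 21.3 CPM in shCtrl and at 2.98, 2.67 and 2.64 CPM in shPRAME. The groups lay well apart, and the mean was 7.27-fold lower in shPRAME (log2 fold change -2.86, SE 0.0851). BSG, basigin (NCBI gene 682, chromosome 19, 571283 to 583493), was at 318.5, 306.5 and 306.7 CPM in shCtrl and at 320.3, 317.7 and 322.2 CPM in shPRAME. These ranges overlapped, and the log2 fold change was 0.04 (SE 0.0235). The pseudogene EMBP1 had 3 to 6 counts in each library, against 91 to 673 for EMB, so reads assigned to this copy were few.

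Among the lactate dehydrogenases, LDHA was lower in shPRAME and LDHB slightly higher. LDHA (NCBI gene 3939, chromosome 11, 18394563 to 18408425) stood at 1772, 1791 and 1854 CPM in shCtrl and at 1296, 1312 and 1340 CPM in shPRAME. The groups were separate, and shPRAME was at 72.9% of the control mean (log2 fold change -0.46, SE 0.0250). LDHB (NCBI gene 3945, chromosome 12, 21635342 to 21657842) had 625.1, 643.3 and 635.1 CPM in shCtrl and 677.7, 679.4 and 663.7 CPM in shPRAME. Its groups did not overlap either, but the difference was small, 1.06-fold (log2 fold change 0.09, SE 0.0226).

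Both subunits of the mitochondrial pyruvate carrier were lower in shPRAME. MPC1 (NCBI gene 51660, chromosome 6, 166364919 to 166382940) was at 24.4, 23.1 and 24.1 CPM in shCtrl and at 16.04, 15.7 and 15.2 CPM in shPRAME, a log2 fold change of -0.61 (SE 0.0536). MPC2 (NCBI gene 25874, chromosome 1, 167916675 to 167937072) was at 18.6, 19.0 and 18.7 CPM in shCtrl and at 13.3, 13.6 and 13.6 CPM in shPRAME, a log2 fold change of -0.47 (SE 0.0564). The groups of each gene were separate. The ratio of MPC1 to MPC2 per kilobase of transcript was 2.33 ± 0.0875 in shCtrl and 2.11 ± 0.0855 in shPRAME (SD, n = 3 each), with 1 shPRAME and 1 shCtrl value close together at 2.21 and 2.23. By the median length of the coding transcripts it was 1.04 ± 0.0391 and 0.946 ± 0.0383, so which subunit had the higher level depends on the length used.

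The listed PDH kinases parted. PDK3 (NCBI gene 5165, chromosome X, 24465286 to 24550466) stood at 42.7, 43.5 and 45.8 CPM in shCtrl and at 32.7, 28.1 and 31.6 CPM in shPRAME, without overlap (log2 fold change -0.52, SE 0.0508). PDK1 (NCBI gene 5163, chromosome 2, 172555373 to 172724312) stood at 35.5, 37.3 and 39.9 CPM in shCtrl and at 36.2, 37.4 and 38.2 CPM in shPRAME. The shPRAME values lay within the shCtrl range, and the log2 fold change was -0.01 (SE 0.0455), with a sign that turned under library total scaling (0.04) and without shCtrl replicate 3 (0.03) or shPRAME replicate 1 (0.02).

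The calls of the 10 genes are given beside those of the whole transcriptome. With edgeR's adjusted p under 0.05 as the rule, 8 of 10 passed, 2 higher (SLC16A1 and LDHB) and 6 lower, where 74.4% of all tested genes passed, 37.7% higher and 36.8% lower. The groups did not overlap at the same 8 genes, and at 76.5% of all tested genes. The median absolute log2 fold change was 0.46 over the 10 genes and 0.38 over all tested genes, and SLC16A3 and EMB were the members above the upper quartile of all genes, 0.77. The median signed log2 fold change was -0.46 over the 10 genes and 0.01 over all tested genes. Nothing is read from these counts, since the same contrast was known when the list was made.

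**Figure D2:**
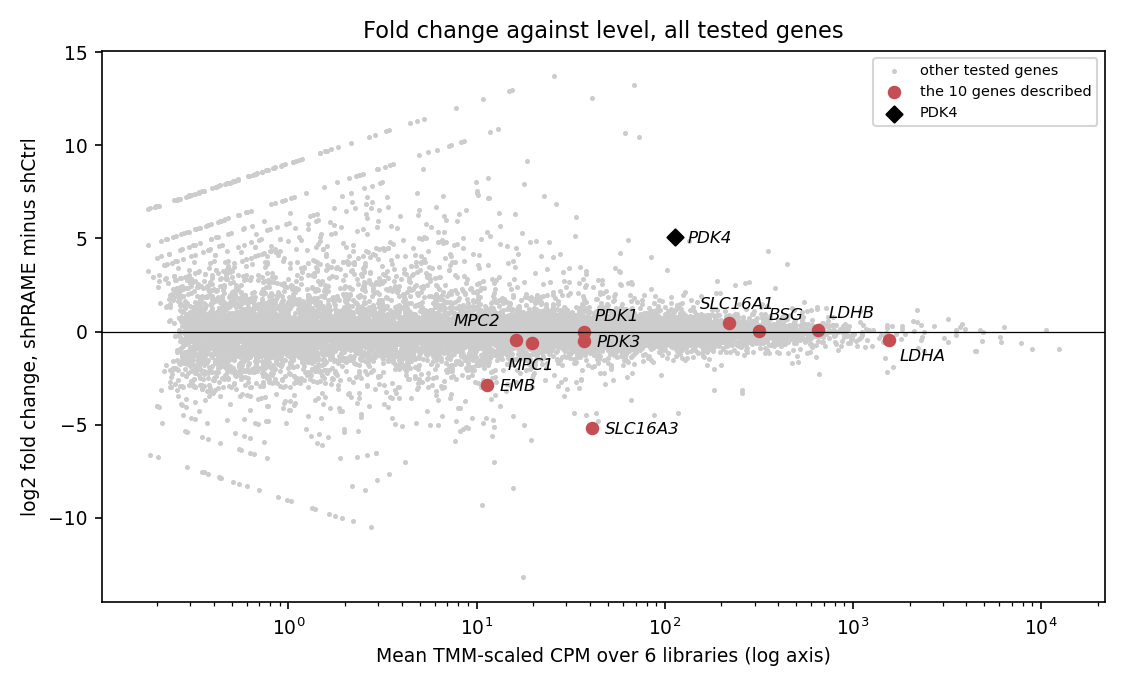
Log2 fold change (shPRAME minus shCtrl) against mean TMM-scaled CPM over the 6 libraries (log axis) for the 15954 tested genes in grey, with the 10 described genes in red and PDK4 as a black diamond. SLC16A3 at -5.17 and EMB at -2.86 lie below the bulk of genes of their level, PDK4 at 5.07 lies above it, and the other 8 genes lie between -0.61 and 0.46.

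Levels of different genes were compared per kilobase of the longest annotated transcript. In shCtrl the order was LDHA (747.5 ± 17.8 CPM per kb), LDHB (412.5 ± 5.91), BSG (145.1 ± 3.20), SLC16A1 (42.4 ± 0.741), MPC1 (20.01 ± 0.536), SLC16A3 (16.6 ± 0.793), PDK3 (9.32 ± 0.334), MPC2 (8.60 ± 0.0951), EMB (4.69 ± 0.272) and PDK1 (2.65 ± 0.157), and no neighbours in it overlapped. In shPRAME SLC16A3 had the lowest place by this length, at 0.463 ± 0.0753 CPM per kb, below EMB at 0.645 ± 0.0440. PDK3 and MPC2 were also next to each other there, at 6.52 ± 0.508 and 6.21 ± 0.0939 CPM per kb, and their ranges overlapped (SD, n = 3 each). Much of this order depends on the length used. By the median length of the protein-coding transcripts, LDHA, LDHB and BSG kept the upper 3 places in both groups, but SLC16A3 (87.8 ± 4.195 CPM per kb) and SLC16A1 (84.2 ± 1.47) overlapped in shCtrl. PDK1, whose longest transcript has 14193 bases and whose median has 1178, then stood above PDK3 in shCtrl, at 31.9 ± 1.89 against 23.6 ± 0.845 CPM per kb. MPC1 and PDK3 overlapped in both groups, as did PDK3 and MPC2. The lowest gene in shPRAME was then EMB, at 1.71 ± 0.116 CPM per kb, below SLC16A3 at 2.45 ± 0.398 (SD, n = 3 each).

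Within gene families, the makeup of the transporter transcripts shifted to SLC16A1. Of the CPM per kb of SLC16A1, SLC16A3 and SLC16A7 (MCT2), SLC16A3 made up 26.8% ± 1.33 in shCtrl and 0.736% ± 0.115 in shPRAME, and SLC16A1 68.4% ± 0.903 and 92.6% ± 0.0808 (SD, n = 3 each). Their summed level was 62.0 ± 0.583 CPM per kb in shCtrl and 62.8 ± 0.853 in shPRAME by the longest transcript, but 191.5 ± 2.30 and 145.2 ± 1.71 by the median coding transcript, so whether the sum differed depends on the length used. By the median coding transcript the shCtrl shares were 45.9% ± 1.93 for SLC16A3 and 44.0% ± 0.937 for SLC16A1, and the shPRAME shares 1.68% ± 0.266 and 79.6% ± 0.212, so which of the 2 genes led in shCtrl depends on the length, while the shift to SLC16A1 was seen with both. LDHA made up 64.4% ± 0.551 of the lactate dehydrogenase transcripts in shCtrl and 55.4% ± 0.721 in shPRAME, and the LDHA to LDHB ratio went from 1.81 ± 0.0437 to 1.24 ± 0.0366. LDHA and LDHB together stood at 1160.0 ± 20.3 and 982.6 ± 5.03 CPM per kb. BSG made up 76.9% ± 0.839 of the transcripts of BSG, EMB and NPTN (neuroplastin, a chaperone of the same family) in shCtrl and 84.2% ± 0.0846 in shPRAME, and EMB 2.49% ± 0.146 and 0.363% ± 0.0244.

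The PDH kinase family changed through a kinase outside the 10 genes. PDK4, the isoform known for its induction by fasting, was at 5.92, 6.79 and 7.01 CPM in shCtrl, from 200, 222 and 216 counts. In shPRAME it was at 240.1, 220.5 and 200.9 CPM, from 7502, 7600 and 6936 counts. Every shPRAME library was far above every shCtrl library, and PDK4 (chromosome 7, 95583499 to 95596516) rose 33.6-fold, from 6.57 ± 0.576 to 220.5 ± 19.6 CPM (log2 fold change 5.07, SE 0.0727; edgeR adjusted p = 5.70e-19). PDK2 was at 14.2 ± 1.33 and 13.5 ± 0.340 CPM and did not pass (edgeR adjusted p = 0.379). Of the CPM per kb of PDK1 to PDK4, PDK4 made up 10.2% ± 0.799 in shCtrl and 82.4% ± 1.41 in shPRAME, PDK3 51.99% ± 1.07 and 8.75% ± 0.826, and PDK1 14.8% ± 0.666 and 3.53% ± 0.351. The summed level of the 4 kinases went from 17.9 ± 0.278 to 74.7 ± 5.49 CPM per kb (SD, n = 3 each), and from 75.4 ± 1.35 to 127.1 ± 4.76 by the median coding transcript. With that length PDK1 had the highest share in shCtrl, 42.2% ± 1.84 against 31.3% ± 0.589 for PDK3, and PDK4 went from 2.44% ± 0.189 to 48.5% ± 2.55, the highest share in shPRAME with either length. The gain of PDK4 was then 46.0 percentage points, against 72.2 by the longest transcript.

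**Figure D3:**
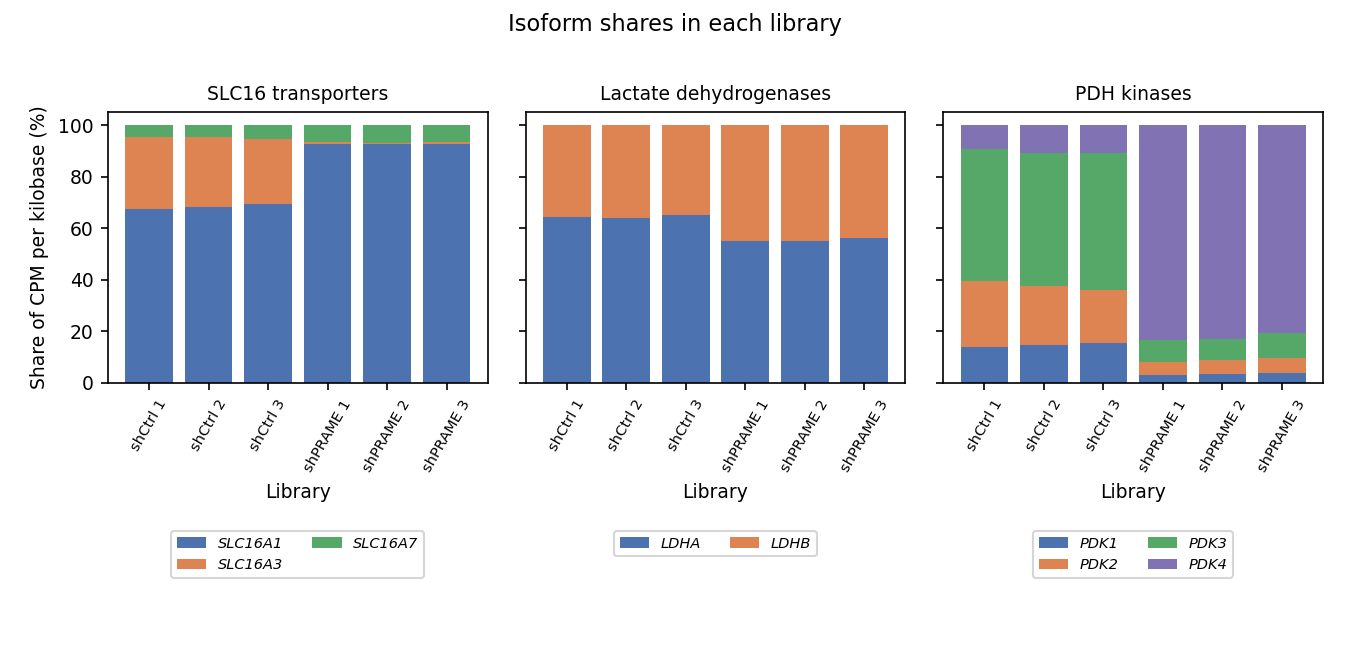
Share of CPM per kilobase (longest transcript) of each isoform within its family, in percent, as stacked bars from 0 for each of the 6 libraries. The SLC16A3 share is 25.3% to 27.8% in shCtrl and below 1% in shPRAME, the LDHA share drops from about 64.4% to 55.4%, and PDK4 goes from 9.33% to 10.7% in shCtrl up to 80.8% to 83.5% in shPRAME.

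Other genes of the pathway, in 10 lists with 93 genes of which 73 could be tested, were tested in the same edgeR fit. Of these 26 rose, 37 fell and 10 did not pass, with a median log2 fold change of -0.16. Over all tested genes 74.4% passed, 37.7% higher and 36.8% lower, and these shares stand beside the count of every list below. Among other monocarboxylate transporters, 6 of 14 were tested, and 3 rose and 3 fell. SLC16A7, a high-affinity pyruvate and lactate carrier, rose from 35.4 ± 3.60 to 49.3 ± 0.742 CPM (edgeR adjusted p = 3.12e-07) and SLC16A6 from 2.35 ± 0.424 to 5.46 ± 0.290 CPM (edgeR adjusted p = 3.02e-07). SLC16A4 fell from 12.1 ± 0.292 to 6.93 ± 0.466 CPM (edgeR adjusted p = 6.19e-08) and SLC16A5 from 9.53 ± 0.464 to 6.97 ± 0.992 CPM (edgeR adjusted p = 5.13e-04). The sodium-coupled carriers SLC5A8 and SLC5A12 had no count in any library.

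Partners of lactate transport at the cell surface changed in both directions, 2 up and 3 down of 5 tested. CA12, a carbonic anhydrase of the outer cell surface, rose 12.2-fold from 1.75 ± 0.407 to 21.3 ± 0.717 CPM (edgeR adjusted p = 7.24e-15), and CD44, an adhesion receptor, from 805.8 ± 15.2 to 897.0 ± 6.83 CPM (edgeR adjusted p = 9.94e-06). NPTN fell from 109.5 ± 2.97 to 77.4 ± 0.563 CPM (edgeR adjusted p = 7.98e-11). HCAR1, the lactate receptor, chosen for mention after its values were seen, held 74, 63 and 52 counts in the shCtrl libraries but 8, 1 and 1 under shPRAME (log2 fold change -4.23, edgeR adjusted p = 3.70e-08). CA9 and CA2 were too low to test.

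Upstream of lactate, PKM, the pyruvate kinase gene of most tissues, fell from 1764 ± 17.5 to 1452 ± 16.2 CPM (edgeR adjusted p = 5.36e-09). It was the only one tested of a list of 3 genes of pyruvate kinases and other carriers. LDHC, the 1 tested of 4 other lactate dehydrogenase genes, stood at 1.82 ± 0.0296 and 1.48 ± 0.200 CPM and did not pass (edgeR adjusted p = 0.115).

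Of 5 tested genes of the pyruvate dehydrogenase complex, 3 fell, 1 rose and 1 did not pass. PDHA1, the E1 alpha subunit that the kinases phosphorylate, fell from 86.6 ± 1.54 to 60.5 ± 1.498 CPM (log2 fold change -0.52, edgeR adjusted p = 1.10e-10), and DLD, the shared E3 subunit, from 148.0 ± 3.06 to 118.7 ± 1.22 CPM (edgeR adjusted p = 8.87e-09). DLAT, the E2 core, rose from 40.1 ± 2.79 to 47.3 ± 1.29 CPM (edgeR adjusted p = 1.36e-04). Among 5 other kinases and phosphatases of the complex 3 rose, including PDK4, and none fell. PDP2, a phosphatase that reverses the kinases, rose from 48.5 ± 0.847 to 58.3 ± 1.79 CPM (edgeR adjusted p = 2.85e-06).

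Genes of other routes from pyruvate split, with 4 up and 4 down among 10 tested genes of carboxylation, malic enzymes and transamination. GPT2, which interconverts pyruvate and alanine in mitochondria, rose from 14.2 ± 0.464 to 36.7 ± 1.32 CPM (edgeR adjusted p = 1.45e-13), and the mitochondrial malic enzyme gene ME2 from 53.1 ± 3.63 to 89.6 ± 0.768 CPM (edgeR adjusted p = 1.72e-11). ME3, another mitochondrial malic enzyme, fell from 452 counts over the shCtrl libraries to 21 over the shPRAME libraries (edgeR adjusted p = 2.95e-12), and the cytosolic ME1 from 73.3 ± 2.48 to 47.3 ± 1.60 CPM (edgeR adjusted p = 5.68e-11). Of 6 genes of citrate synthase and acetyl-CoA handling 4 rose and 1 fell. ACSS1, the mitochondrial acetyl-CoA synthetase, fell 3.50-fold from 31.7 ± 2.35 to 9.05 ± 0.377 CPM (edgeR adjusted p = 1.17e-13), while ACAT1 rose from 22.5 ± 0.889 to 29.6 ± 0.369 CPM (edgeR adjusted p = 9.86e-07) and ACLY, ATP citrate lyase, from 350.6 ± 8.25 to 403.4 ± 3.01 CPM (edgeR adjusted p = 5.32e-07).

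Of 17 regulators known to act on these genes, 10 fell, 4 rose and 3 did not pass, beside 36.8% lower and 37.7% higher over all tested genes. HIF1A mRNA, the oxygen-regulated subunit of hypoxia-inducible factor, was at 647.5, 687.4 and 726.9 CPM in shCtrl and at 368.7, 367.6 and 362.3 CPM in shPRAME. All shPRAME values lay below all shCtrl values, and the fall was 1.88-fold (edgeR adjusted p = 9.15e-14). EGLN1, a prolyl hydroxylase that marks this subunit for degradation, fell from 102.4 ± 3.35 to 70.3 ± 0.591 CPM (edgeR adjusted p = 5.28e-11), and VHL, which recognises the mark, rose from 47.9 ± 1.48 to 58.1 ± 2.90 CPM (edgeR adjusted p = 7.63e-06). MYC, a known activator of LDHA and SLC16A1, rose 4.19-fold from 18.2 ± 0.557 to 76.1 ± 1.03 CPM (edgeR adjusted p = 1.61e-17).

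Of 17 tested hypoxia-induced genes outside the 10 genes, 12 fell and 5 rose, with a median log2 fold change of -0.31, beside 36.8% lower and 37.7% higher over all tested genes. NDRG1 fell from 269.7 ± 8.15 to 125.7 ± 3.29 CPM (edgeR adjusted p = 1.32e-15) and DDIT4, an inhibitor of mTOR signalling, from 108.7 ± 4.98 to 48.0 ± 0.548 CPM (edgeR adjusted p = 9.83e-15). PFKFB3, which raises flux through glycolysis, rose from 148.3 ± 5.58 to 230.9 ± 2.91 CPM (edgeR adjusted p = 1.52e-12) and the histone demethylase gene KDM3A from 58.4 ± 0.718 to 75.6 ± 0.691 CPM (edgeR adjusted p = 5.72e-09). Among the described genes with ACGTG in a promoter window, SLC16A3, LDHA and PDK3 stood lower, and the groups of PDK1 and BSG overlapped. Which of these genes respond to hypoxia in these cells was not tested.

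**Figure D4:**
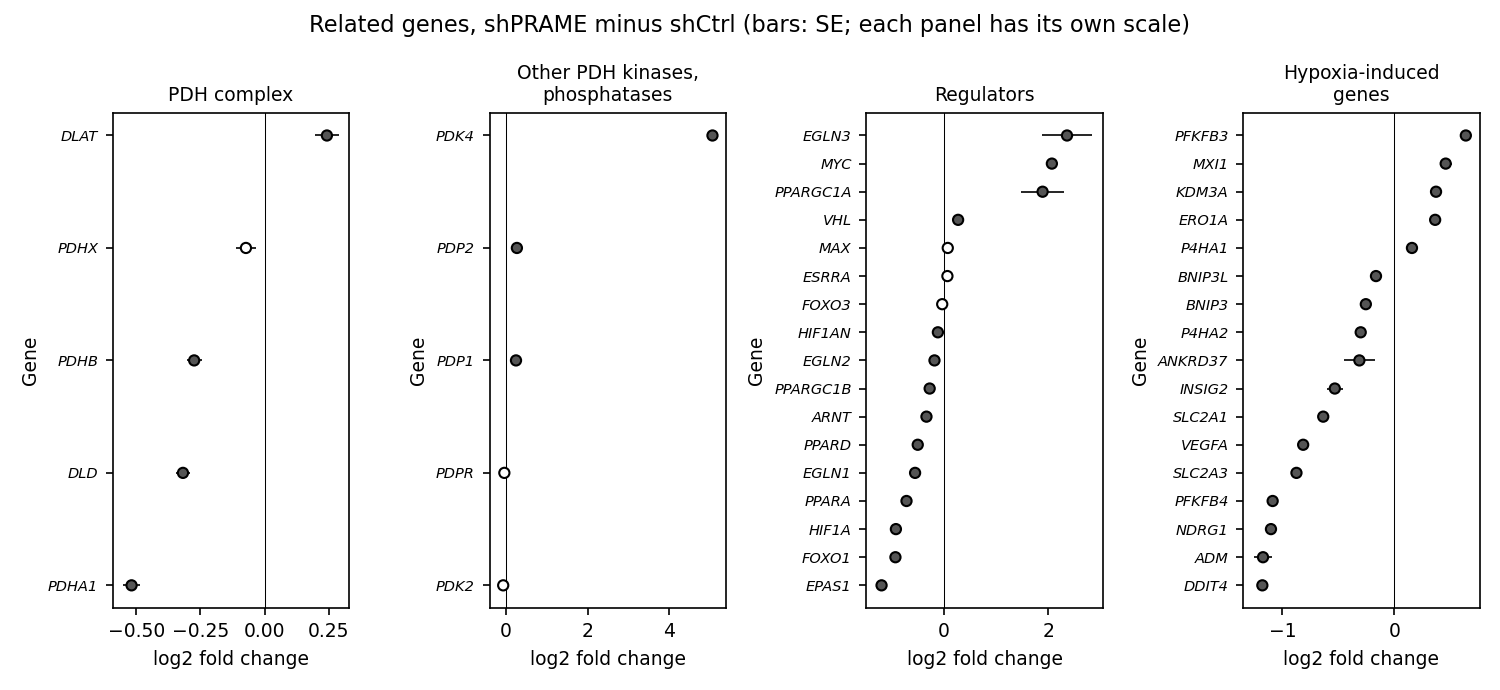
Log2 fold changes (shPRAME minus shCtrl, bars are SE) of the tested genes of 4 lists, each panel with its own scale. Filled points passed and open points did not. PDK4 at 5.07 stands apart in its panel, and 12 of 17 hypoxia-induced genes lie below 0.

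Most genes around SLC16A3 were higher rather than lower. Of 51 tested genes whose start lay within 1 Mb, 30 rose and 4 fell, where 37.7% of all tested genes rose and 36.8% fell. Their median log2 fold change was 0.18 and the lowest -0.60, so all 51 stood above SLC16A3 at -5.17. Its nearest tested neighbours both rose: CSNK1D, casein kinase 1 delta, from 74.1 ± 3.02 to 106.1 ± 1.34 CPM (edgeR adjusted p = 1.62e-10) and CCDC57 from 27.6 ± 1.22 to 35.4 ± 1.85 CPM (edgeR adjusted p = 4.49e-06). The annotated span of CSNK1D, which begins at 82239019, overlaps the end of SLC16A3. In the shPRAME replicates CSNK1D had 3302, 3711 and 3628 counts, and SLC16A3 had 79, 63 and 81. Whether the counting used strand is not given in the sources used here. An unknown part of the remaining SLC16A3 counts could therefore be reads of CSNK1D, which was not tested. MPC2 also stood below all 9 of its tested neighbours, of which 7 rose and none fell (median log2 fold change 0.30). Its span lies wholly within that of its neighbour DCAF6 (chromosome 1, 167863576 to 168075836). DCAF6 stood at 59.3 ± 2.23 CPM in shCtrl and 63.3 ± 0.457 CPM in shPRAME. As the use of strand is not given, some MPC2 counts could be reads of DCAF6, which was not tested. SLC16A1 stood at 0.46 in a region with a median of 0.12.

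EMB and MPC1 had neighbours that were lower too. The 1 tested gene within 1 Mb of EMB was PARP8, an ADP-ribosyltransferase gene, which fell from 168, 180 and 158 counts in shCtrl to 3, 2 and 0 in shPRAME (edgeR adjusted p = 1.47e-12). The 20 tested genes nearest to EMB, a wider stretch, had a median log2 fold change of -0.20. Around MPC1, 5 of 9 tested genes fell and 2 rose, with a median of -0.45 against -0.61 for MPC1 itself. Around LDHA 8 of 19 fell and 3 rose, with a median of -0.20 against -0.46 for LDHA. Over all tested genes 36.8% fell and 37.7% rose. Around PDK3 the median was -0.10, against -0.52 for PDK3. What part a shared shift of neighbouring genes has in the levels of MPC1 and EMB was not tested.

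**Figure D5:**
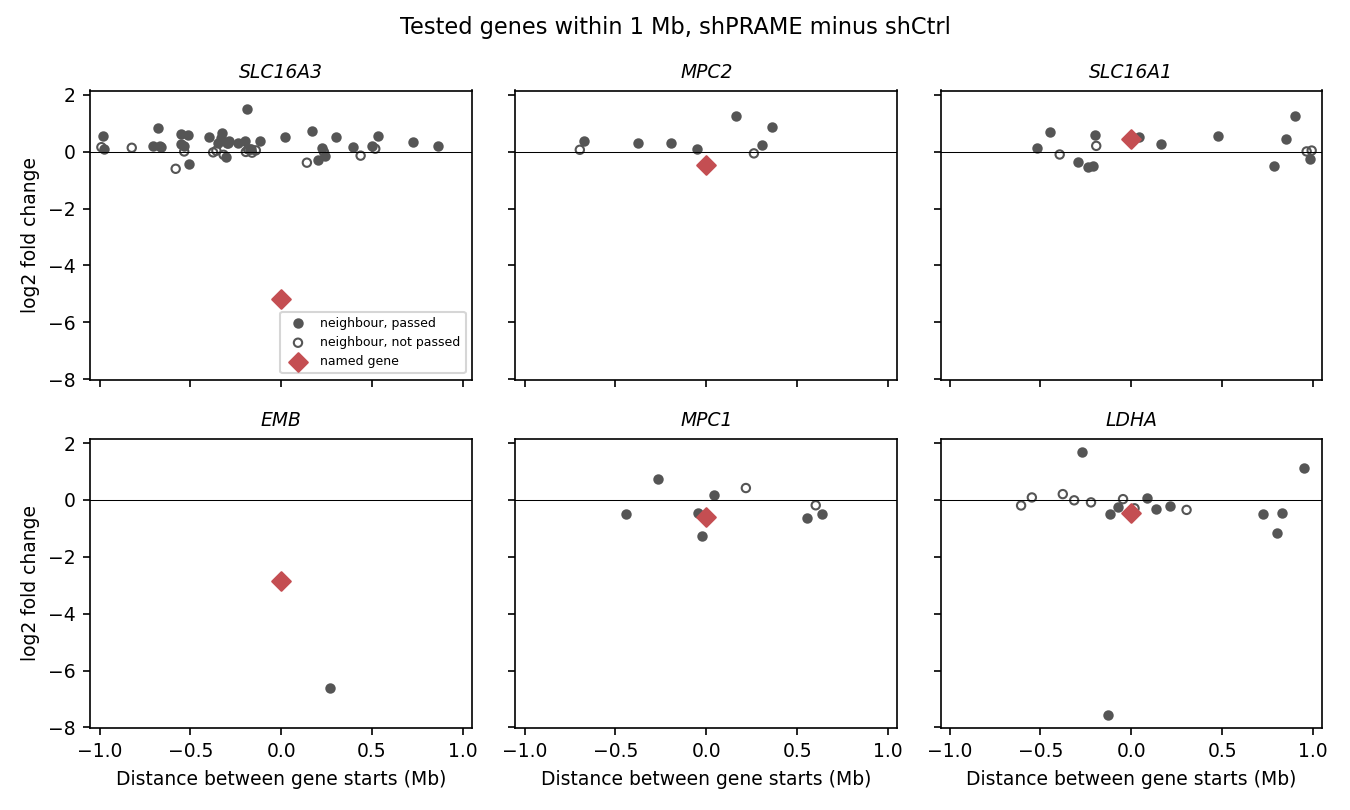
Log2 fold change (shPRAME minus shCtrl) of tested genes within 1 Mb of 6 described genes, by distance between gene starts in Mb. The red diamond is the named gene, filled grey points are neighbours that passed and open points neighbours that did not. SLC16A3 at -5.17 lies below all its 51 neighbours, whereas PARP8, the 1 tested neighbour of EMB, lies below EMB.

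Genes with the pattern most like that of SLC16A3 were found by the root mean square difference of centred log2 CPM over the 6 libraries, among 10871 tested genes with a mean of at least 5 CPM. The nearest were NFASC, a cell adhesion gene (difference 0.112, 16.4 ± 0.983 to 0.430 ± 0.0739 CPM), TES, the focal adhesion protein testin (0.166, 34.8 ± 1.04 to 1.07 ± 0.107 CPM), and LOC101448202 (0.181, 17.0 ± 0.557 to 0.489 ± 0.00730 CPM). For SLC16A1, the described gene with the highest log2 fold change, they were ERP29, an endoplasmic reticulum protein (0.0141, 52.2 ± 0.279 to 70.9 ± 0.711 CPM), the glycosyltransferase gene GALNT2 (0.0147, 214.7 ± 3.28 to 296.7 ± 1.78 CPM) and KIAA1549 (0.0167, 40.6 ± 0.765 to 55.3 ± 0.723 CPM). These distances rest on 2 groups of 3 libraries and mostly reflect an equal fold change.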

How the data were processed

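The authors deposited a file for each library with unnormalized, whole-number counts and NCBI gene identifiers, as its values show. In the submitters' processing notes the tools are fastp, STAR, Salmon; GRCh38 and hg38 are the builds. The tool that counted, its annotation and any use of strand: not given in the sources used here. Rounded Salmon estimates would divide reads between similar genes by a model.

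Of 40929 rows, 34 repeated identifiers were added together, leaving 40895, of which 40789 matched RefSeq (GRCh38.p14). Unmatched identifiers took at most 0.00929% of a library. Differences were tested on these counts by edgeR 4.0.16 under R 4.3.3 (filterByExpr, TMM, quasi-likelihood test, 2-sided, group only, Benjamini-Hochberg over 15954 genes, passed under 0.05), after a test on simulated data. SE is the log2 fold change over the root of F. Lengths came from GENCODE release 29. Replicate numbers were not used to pair the libraries in this fit. Replicates differed by more than sampling noise.

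The members and lists were chosen with earlier results of these data known. Named were all members, PRAME, up to 4 genes per list (the 2 smallest adjusted p in each direction, mean at least 1 CPM), nearest neighbours and most similar genes. 1 gene that this rule names is not reported here. Alternatives were RLE and library total scaling, no filter, at least 1 CPM in 3 libraries, DESeq2 1.42.0, limma-voom 3.58.1, a minimum fold of 1.2, the replicate block and leaving out each library; other regional windows and transcript lengths were tried too.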

Additional observations from a re-analysis of the deposited data

How the results depend on the processing

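Of the 10 described genes, 7 to 9 passed under every alternative run, and all but PDK1 kept their direction; BSG passed under library total scaling and without shCtrl replicate 1, and LDHB did not pass against a minimum fold of 1.2. Over all alternatives the log2 fold change of SLC16A3 lay between -5.26 and -5.04 and that of EMB between -2.91 and -2.81. The median log2 fold change of the 10 genes was -0.41 under library total scaling. Against a minimum fold of 1.2, 7726 genes passed, and 16 related genes were higher and 28 lower. Leaving out 1 library gave 62 to 64 related genes passing and 11390 to 11704 over all genes. Same-numbered libraries did not deviate together (correlations -0.0589, -0.119 and -0.0999). Whether they were grown or prepared together is not given in the sources used here, and these correlations cannot tell. With the replicate block 11603 genes passed, with 8 described and 62 related genes among them. ANKRD37 was not called by DESeq2, limma-voom, the block, library total scaling, no filter, a minimum fold of 1.2 or on leaving out any library.

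Shifts of isoform shares (shPRAME minus shCtrl, percentage points) moved with the length used, because the weights of the genes change. With the median coding transcript they were 35.6 for SLC16A1, -44.2 for SLC16A3, 8.54 for SLC16A7, -17.3 for PDK1, -10.5 for PDK2, -18.3 for PDK3, 46.0 for PDK4, 8.48 for BSG and -2.825 for EMB. With no length correction they were -7.86 for LDHA, 7.86 for LDHB, 21.6 for SLC16A1, 4.37 for SLC16A7, -24.3 for PDK1, -9.40 for PDK2, -32.8 for PDK3, 66.5 for PDK4, 9.42 for BSG and -3.87 for EMB. No share shift changed direction. With the median coding transcript, tried for sums and ratios after seeing the data, the difference in summed transporter level turned from 0.825 to -46.3 CPM per kb. The regional median around SLC16A1 was -0.06 within 2 Mb, against 0.12 within 1 Mb. Depth limits CA9, CA2 and LDHD, whose counts were too low to test.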

Other observations

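Next to PDK3, PCYT1B, an enzyme gene of phosphatidylcholine synthesis, rose from 2.28 ± 0.272 to 8.28 ± 0.627 CPM (edgeR adjusted p = 1.59e-10), while ZFX on the other side stood at 70.0 ± 2.25 and 67.0 ± 2.04 CPM and did not pass (edgeR adjusted p = 0.109). Next to MPC2, the receptor gene GPR161 rose from 7.29 ± 0.0597 to 17.2 ± 0.498 CPM (edgeR adjusted p = 2.08e-11). Next to BSG, the channel gene HCN2 fell from 3.50 ± 0.148 to 1.29 ± 0.125 CPM (edgeR adjusted p = 7.31e-08). The antisense gene PDK1-AS1, with 107 counts over shCtrl and 63 over shPRAME, fell (edgeR adjusted p = 4.31e-03) beside PDK1, whose groups overlapped, and SLC16A1-AS1, with 222 and 324 counts, rose (edgeR adjusted p = 2.88e-03) beside SLC16A1. PDK1-AS1 overlaps PDK1, and without knowledge of strand reads from the overlap cannot be told apart. The span of SLC16A1-AS1 begins beyond the end of SLC16A1.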
